A study of Mus musculus with 77 samples.

Results

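The regions described here are parts of the mouse genome with a mixed replication state among cells in the middle of S phase. They are 771 bins of 80 kb, 2.60% of the 29620 autosomal bins that could be assessed and 61.7 Mb in all, and are called intermediate bins below. A bin was taken when it was replicated in 40 to 60% of the cells that gave a call for it, both among 8-cell and among 4-cell embryos. The cells used for this choice had a Repliscore between 30 and 70 and are called mid-S cells. The Repliscore is the percentage of a cell's called autosomal bins that were replicated. A bin could be assessed when at least 20 mid-S cells of the 8-cell stage and 12 of the 4-cell stage gave a call. The bins were chosen by the measured states of these cells, so the share of cells that replicated them is a description and supports nothing further. The median share was 50% in cells of either stage.

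The data are single-cell Repli-seq profiles of blastomeres from BDF1 mice, taken from embryos that were cloned by nuclear transfer from somatic cells (SCNT) and cultured in vitro. The 8-cell group had 49 cells from 12 embryos and the 4-cell group 28 cells from 14 embryos, all of them SCNT embryos, and no fertilised embryo was analysed here. Mid-S cells numbered 28 from 10 8-cell embryos and 18 from 9 4-cell embryos. The embryo, named for each cell in the authors' annotation, was the replicate, except in one alternative fit over cells that kept the embryo as a random block.

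A cell copies its genome during S phase in a characteristic order. Large domains of active, open chromatin are copied early and compact, gene-poor domains late, and long stretches of graded timing join them. In single-cell Repli-seq the DNA copy number along one genome shows which parts were already copied when the cell was taken. A bin of intermediate timing can lie on the border between an early and a late domain, where a small shift of the replication front decides its state, or inside a domain that is copied as a unit in mid-S. Each deposited state summarises both copies of a chromosome, so a bin copied on one homolog alone has no state of its own. The annotation of the genome build of the files (mm9) was not used here, and genes and base composition were not analysed.

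Several cells stood apart. An autosome held one state in at least 98% of its called bins in 4 mid-S cells of the 8-cell stage and in 2 of the 4-cell stage. The 2 such 4-cell cells came from embryo 6, and their states correlated with each other at -0.03 over all autosomal bins. The annotation gives a batch for each cell but not what sets the batches apart. The lowest batch value is called the earlier batch here and any other value the later batch. The 4-cell cells came from both the earlier and the later batch, and all 8-cell mid-S cells from the later batch. The later batch held 8 mid-S cells of 4 embryos at the 4-cell stage and the earlier batch 10 of 5 embryos. No 4-cell mid-S cell had a Repliscore between 40 and 50, and the median Repliscore was 49.5 in 8-cell and 57.3 in 4-cell mid-S cells. The cells had calls in 27235 to 29848 autosomal bins if 8-cell and in 27057 to 29849 if 4-cell. Read depth per cell is not part of the files used here.

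The intermediate bins were scattered, mostly in short runs. They formed 475 runs of adjacent bins, of which 297 were 1 bin long, 104 were 2 bins long and 74 were 3 bins or longer. Only 31 runs reached 4 bins, with 137 of the 771 bins among them. The longest run held 7 bins, or 560 kb, at chr19:56320001-56880000. The runs at chr3:61360001-61840000 and chr6:33360001-33840000 held 6 bins each. A run of 5 bins was found at chr1:196640001-197040000, at chr5:14400001-14800000, at chr6:99280001-99680000, at chr7:89760001-90160000, at chr9:22720001-23120000 and at chr18:55840001-56240000.

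Bins of intermediate share were more numerous at each stage than in the set shared by both. At the 8-cell stage 2735 assessed bins had a share of 40 to 60%, of which the intermediate bins were 28.2%. Among 4-cell cells 3584 did, of which they were 21.5%. Within 5 points of a limit lay 579 of the 771 intermediate bins, and 1001 further bins missed the rule by at most 5 points at one stage alone. The set is therefore a slice of a continuous distribution. Limits of 45 to 55% kept 192 bins and limits of 35 to 65% took 2110.

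The first question was whether these bins are borders of domains or whole domains. Each run was placed by the mean share of the 5 assessed bins on either side, taken over both stages. A run was called a border when this mean was at least 60% on one side and at most 40% on the other. Border runs numbered 220 of 475 and held 297 of the 771 intermediate bins, or 38.5%. Runs with early flanks on both sides numbered 18 with 38 bins, and runs with late flanks on both sides 26 with 69 bins. In another 206 runs with 355 bins at least one flank lay between 40 and 60%, and in 28 of them both did. The remaining 5 runs lay too close to the end of a chromosome. Runs of other bins were not placed in this way, so the border share was not shown to be particular to intermediate bins.

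Short runs and long runs differed in their surroundings. Of the 297 single bins 167 were borders (56.2%), and of the 104 runs of 2 bins 38 were (36.5%). Of the 43 runs of 3 bins 8 were borders and 13 had late flanks on both sides. Of the 31 runs of 4 bins or more 7 were borders (22.6%), 3 had early and 3 late flanks on both sides, and 16 had a flank of intermediate share. The flanks come from the cells that chose the bins, so these counts were not tested.

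The limits decided how many bins counted as borders. With flank limits of 70 and 30% the border share was 14.8%. When whole stretches of bins with a mean share between 20 and 80% were taken in place of flanks, a definition added after the data were seen, 343 stretches held all 771 bins. The ends of a stretch were read only from the assessed bin next to it on each side, early at 80% or more and late at 20% or less. Whether that bin belonged to a larger domain was not read. Of these stretches 209, with 429 bins (55.6%), ran between an early and a late bin. Another 57 with 153 bins lay between early bins, 72 with 177 bins between late bins and 5 at the end of a chromosome. Among all 1537 stretches of such timing, 688 (44.8%) ran between an early and a late bin, beside 60.9% of the 343. This difference was not tested. The stretches with an intermediate bin had a median width of 1.04 Mb, against 0.48 Mb for all 1537 stretches of such timing, and a wider stretch has more bins that can qualify. Stretches of at least 2 Mb numbered 60 and held 218 intermediate bins (28.3%).

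The transition at border runs was read in each stage after the other stage had set which runs were borders and which side was early. At 0.4 Mb on the early side, 79.0% ± 18.5 of 8-cell mid-S cells and 72.5% ± 15.6 of 4-cell mid-S cells had replicated the bin (SD over the 165 runs read in 8-cell and the 239 read in 4-cell cells). At 0.4 Mb on the late side it was 16.2% ± 15.2 of 8-cell cells and 30.7% ± 16.6 of 4-cell cells (SD over the runs read on that side). At 2 Mb the early side stood at 51.4% in 8-cell and 52.7% in 4-cell cells, and the late side at 40.2% in 8-cell and 49.9% in 4-cell cells. At 0.4 Mb around the runs that were no borders, the early side stood at 60.8% and the late side at 31.4% in 8-cell cells, and at 57.9% and 41.7% in 4-cell cells.

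**Figure D1:**
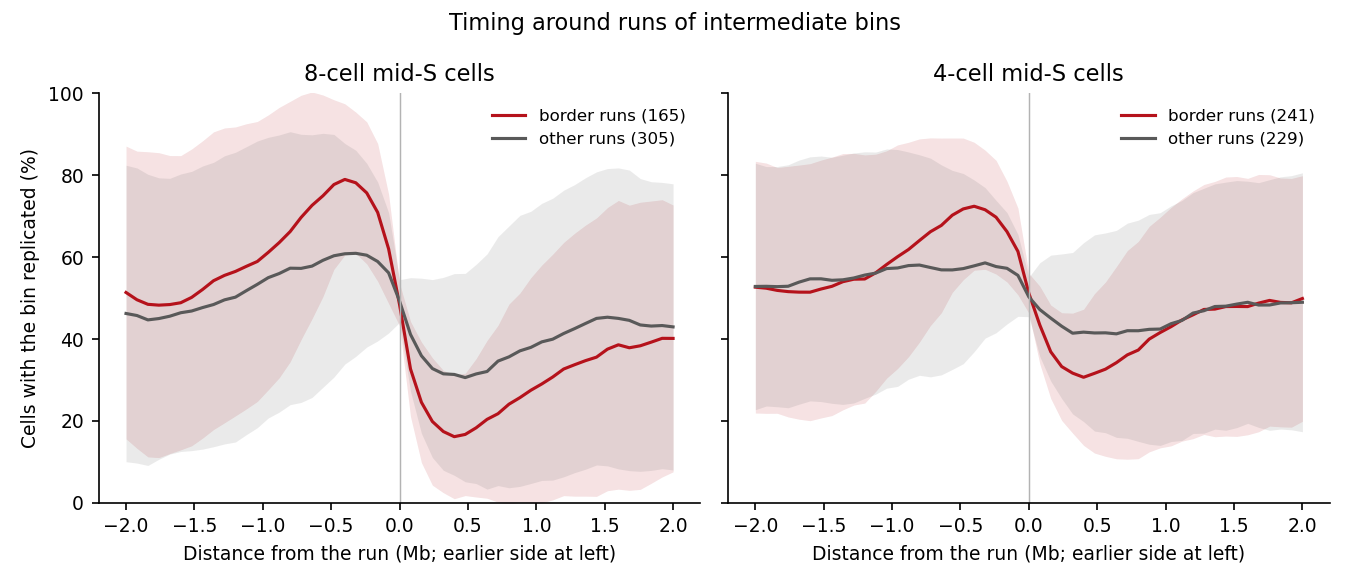
Mean share of mid-S cells with a bin replicated against the distance from a run of intermediate bins, for 8-cell cells (left) and 4-cell cells (right), with border runs in red and all other runs in grey and bands of 1 SD over runs. The other stage chose the borders and the side drawn at left. Border runs stand at 79.0% in 8-cell and 72.5% in 4-cell cells 0.4 Mb to the left, and lower to the right.

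Changes of state were more frequent at intermediate bins than at all other assessed bins, and little more frequent than at the bins of nearest share. For this comparison the bins were chosen again without the embryo being measured, and the bins compared had shares of 20 to under 40% or of over 60 to 80% at both stages. Per 100 adjacent pairs, 8-cell embryos had 8.54 to 18.6 changes (median 12.7) at intermediate bins and 7.62 to 15.3 (median 11.2) at the comparison bins. The 4-cell embryos had 2.64 to 10.7 changes (median 8.47) and 2.71 to 8.93 (median 6.58). The excess was 1.78 ± 2.09 at the 8-cell stage (SD, n = 10, positive in 8, exact sign-flip p = 0.0215, adjusted p = 0.0564). It was 1.18 ± 1.60 at the 4-cell stage (n = 9, positive in 7, exact sign-flip p = 0.043, adjusted p = 0.1). Adjusted values here and below are Benjamini-Hochberg values over the 21 tests on embryos, and neither excess passed after adjustment. All tests are two-sided. Against all other assessed bins the excess was 5.88 at the 8-cell stage (exact sign-flip p = 0.00195) and 2.72 at the 4-cell stage (exact sign-flip p = 0.00781). A bin nearer to equal shares has more room for a change, and how much of either excess this gives was not tested.

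Intermediate bins of 8-cell embryos changed state more often than those of 4-cell embryos. Embryo means were 12.7 ± 3.10 at the 8-cell stage (SD, n = 10) and 7.56 ± 2.99 at the 4-cell stage (SD, n = 9), a difference of 5.09 changes per 100 pairs (exact permutation p = 0.00141, adjusted p = 0.0148). Over all assessed bins the rates were 6.81 in 8-cell and 4.85 in 4-cell embryos. The excess of intermediate over comparison bins differed between the stages by 0.592 (exact permutation p = 0.497), so the stage difference was not shown to be particular to intermediate bins. Within the later batch the difference was 7.27 (exact permutation p = 0.000999, the smallest that 10 against 4 embryos allow). Against the earlier batch of 4-cell embryos it was 3.35 (exact permutation p = 0.049, 10 against 5 embryos). Without cells that held a one-state autosome it was 4.97 (exact permutation p = 0.00588, 9 against 8 embryos). The Repliscores of the mid-S cells differed between the stages, as given above, and the authors' noise score was 0.497 to 0.718 in 8-cell and 0.523 to 0.805 in 4-cell mid-S cells. Their part in the difference was not tested.

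Runs of at least 4 called intermediate bins were mostly in one state in any one cell. No comparison bins were read in this way, so it was not shown to be particular to intermediate bins. This held for 60.8 to 84.0% of runs in 8-cell embryos (median 69.7%) and for 68.9 to 98.6% in 4-cell embryos (median 79.9%). The highest 4-cell value was that of embryo 6. The means of 72.5% ± 7.70 at the 8-cell stage (SD, n = 10) and 80.3% ± 8.75 at the 4-cell stage (n = 9) differed by -7.84 points (exact permutation p = 0.0514, adjusted p = 0.108). Against the 4-cell embryos of the later batch the difference was -14.6 points (exact permutation p = 0.011), and against those of the earlier batch it was -2.46 points (exact permutation p = 0.521). With 14 of the 26 embryos left out in turn the p fell under 0.05, and for runs of 6 or more called bins the difference was 1.60 points (exact permutation p = 0.859).

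When a border run was split in a cell, its replicated part mostly faced the early domain. The early side was again taken from the other stage, and runs of at least 2 bins were read. The runs themselves were not chosen again without the measured embryo. At the 8-cell stage 136 of 1170 readings (11.6%) were split at a single point, and 92 of these had the replicated part on the early side. In 4-cell cells 68 of 1051 readings (6.47%) were split, 43 of them with the replicated part on the early side. Per embryo the share was 50 to 81.8% at the 8-cell stage, with a mean of 68.0% ± 10.6 (SD, n = 10, over 50% in 9, exact sign-flip p = 0.00391, adjusted p = 0.0273). In 4-cell embryos it was 16.7 to 100% with a mean of 63.3% ± 28.7 (n = 9, over 50% in 7, exact sign-flip p = 0.203), and single embryos gave as few as 1 split run. The stages differed by 4.72 points (exact permutation p = 0.633). The 8-cell result lost its call without 8-cell embryo 9 (10.8 points above 50%, exact sign-flip p = 0.113). It also lost it in the later batch alone, where the early side came from 4 embryos at the 4-cell stage (13.5 points above 50%, exact sign-flip p = 0.109).

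The second question was whether the state of an intermediate bin followed the Repliscore of the cell or varied at random. The number of replicated intermediate bins followed it steeply, and so did that of the bins with nearby shares. With the bins chosen again without the measured embryo, 8-cell cells with a Repliscore of 30 to 40 had replicated 12.1% ± 5.62 of them (SD over 4 embryos, 7 cells). At 40 to 50 it was 41.97% ± 10.5 (7 embryos, 9 cells), at 50 to 60 it was 64.7% ± 9.08 (4 embryos, 7 cells) and at 60 to 70 it was 84.8% ± 2.99 (4 embryos, 5 cells). In 4-cell cells the values were 21.4% ± 3.45 at 30 to 40 (3 embryos, 4 cells), 55.4% ± 11.04 at 50 to 60 (6 embryos, 8 cells) and 69.0% ± 12.2 at 60 to 70 (4 embryos, 6 cells). Between the lowest and the highest range, the 8-cell means ran 3.84 to 61.3% for bins with shares of 20 to under 40% and 31.2 to 94.0% for bins of over 60 to 80%. In 4-cell cells they ran 12.2 to 45.5% and 40.01 to 85.0%.

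The line through the cells had a slope of 2.28 points of replicated bins per point of Repliscore at the 8-cell stage (Pearson r = 0.98, Spearman rho = 0.98, 28 cells). In 4-cell cells the slope was 1.99 (Pearson r = 0.92, Spearman rho = 0.80, 18 cells). For bins of 20 to under 40% the slope was 1.71 in 8-cell (r = 0.96) and 1.39 in 4-cell cells (r = 0.82), and for bins of over 60 to 80% it was 1.98 in 8-cell (r = 0.94) and 1.75 in 4-cell cells (r = 0.89). The differences between these slopes were not tested. These correlations are descriptions, since cells share embryos and the Repliscore counts the same states genome-wide. The cells scattered about the line with an SD of 4.98 points in 8-cell and 8.86 points in 4-cell cells. Within the 4-cell stage the slope was 1.28 in the 8 cells of the later batch (r = 0.49) and 1.92 in the 10 cells of the earlier batch (r = 0.97). The later batch held no 4-cell mid-S cell below a Repliscore of 56.5, and it held both cells of embryo 6. Without cells with a one-state autosome the slopes were 2.32 in 8-cell and 1.96 in 4-cell cells.

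**Figure D2:**
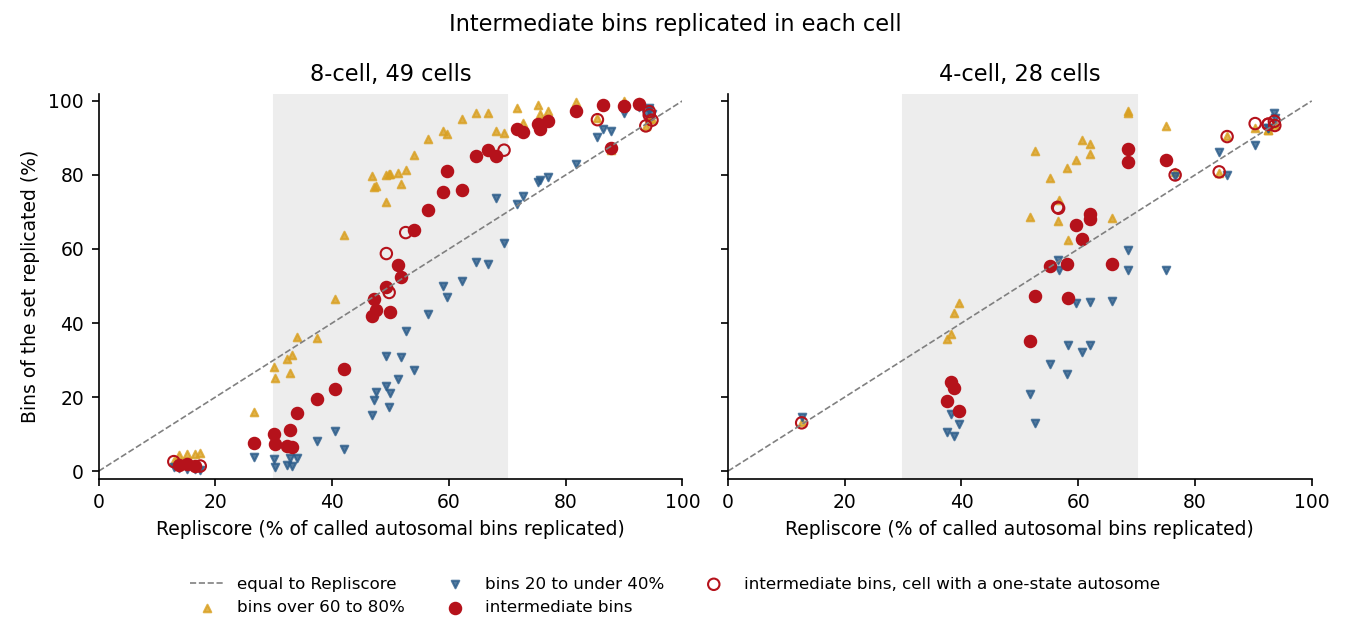
Percentage of a set of bins replicated in each cell against the Repliscore of the cell, for 49 8-cell cells (left) and 28 4-cell cells (right), with intermediate bins in red (open where the cell had a one-state autosome), bins of later timing in blue and of earlier timing in yellow. Grey marks the mid-S range, in which the red points lie between 6.56 and 86.9% for 8-cell cells and between 16.2 and 86.9% for 4-cell cells.

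Cells outside mid-S took no part in choosing the bins. The 6 early-S cells of the 8-cell stage (Repliscore under 30, 4 embryos) had replicated 1.41 to 7.54% of the intermediate bins per embryo and 41.8 to 74.2% of the constantly early bins. Those are the 7820 bins with shares of 80% or more at both stages. Bins of 20 to under 40% stood at 1.48% ± 1.59 and bins of over 60 to 80% at 7.19% ± 5.96 (SD, n = 4), against 3.25% ± 2.88 for intermediate bins. The intermediate bins stood 14.8 ± 3.41 points below the Repliscore (lower in 4 of 4 embryos, exact sign-flip p = 0.125, the smallest that 4 embryos allow). The single early-S cell of the 4-cell stage had replicated 13.04% of the intermediate bins, 11.1% of the constantly early bins and 16.2% of the 5152 constantly late bins, which have shares of 20% or less. This cell held 14 one-state autosomes, and its bins of all timing classes were close to its Repliscore of 12.6.

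In late-S cells (Repliscore over 70) nearly all intermediate bins were replicated. The 8-cell embryos had replicated 91.1 to 99.1% of them (mean 95.2% ± 2.77, 15 cells of 8 embryos) and 24.3 to 94.7% of the constantly late bins. The 4-cell embryos had replicated 80.4 to 93.9% (mean 88.9% ± 6.19, 9 cells of 5 embryos). Bins of 20 to under 40% stood at 88.5% ± 8.85 in 8-cell and 82.0% ± 16.4 in 4-cell embryos, and bins of over 60 to 80% at 96.5% ± 3.16 in 8-cell and 90.3% ± 5.43 in 4-cell embryos, so high values in late-S were shared with these sets. The intermediate bins exceeded the Repliscore by 9.97 ± 7.13 points at the 8-cell stage (higher in 8 of 8 embryos, exact sign-flip p = 0.00781, adjusted p = 0.0328). The excess was 2.97 ± 3.81 points at the 4-cell stage (higher in 5 of 5 embryos, exact sign-flip p = 0.0625, the smallest that 5 embryos allow). The difference between the stages was 7.0 points (exact permutation p = 0.0769, adjusted p = 0.135). Of the 9 late-S cells of the 4-cell stage all but the cell of embryo 12 held one-state autosomes, and the cells of embryo 4 were nearly the same profile (correlation 0.998). The 1 late-S cell of embryo 12 exceeded its Repliscore by 9.10 points. At the 8-cell stage the 4 late-S cells of embryos 9 and 10 held 14 to 19 one-state autosomes, and a cell of embryo 3 had replicated 80.6% of the constantly early and 92.4% of the constantly late bins. Without cells that held a one-state autosome the 8-cell excess was 12.6 points (exact sign-flip p = 0.0313), with 1 4-cell cell left beside it.

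Single bins were fitted with limma on embryo means of the mid-S cells, with the stage and the mean Repliscore of the embryo as terms. A slope of 1 means that a bin gains 1 point of replicated cells per point of Repliscore, the mean of the genome by construction. The median slope was 2.20 over the 771 intermediate bins (quartiles 1.47 and 2.80), and 0.90 over all 29618 fitted bins. It was 1.65 over the 1357 bins with shares of 20 to under 40% and 2.08 over the 1485 bins with shares of over 60 to 80%. The slope was above 0 in 758 and above 1 in 658 of the 771 intermediate bins, and the median standard error was 0.963. A share near 50% leaves the most room for a slope, so the rule itself fixes part of this difference. Among intermediate bins the median was 2.33 in border runs, 2.17 between early flanks, 2.02 between late flanks and 2.14 in the remainder.

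The slopes come from the cells that chose the bins, so the count past a threshold is a description and supports nothing. An adjusted p under 0.05 over all bins (limma) was reached by 149 of 771 intermediate bins, or 19.3%, beside 6.93% of all fitted bins (2052), and by none with a negative slope. The bins of over 60 to 80% did so in 347 of 1485 cases (23.4%) and those of 20 to under 40% in 130 of 1357 (9.58%). The count hung on single embryos. Without 4-cell embryo 14, whose 1 mid-S cell had the lowest Repliscore of its stage's embryo means (38.2), no bin passed at all, though 444 of the then 950 intermediate bins had an unadjusted p under 0.05. In the later batch alone, again, no bin passed limma's adjusted threshold, with 125 of 367 fitted bins at an unadjusted p under 0.05. The count was 62 without 4-cell embryo 7, 91 without 8-cell embryo 3, 98 without 8-cell embryo 5, 85 without 8-cell embryo 9 and 238 without 4-cell embryo 9. With cells as the unit and the embryo as a random block (correlation 0.0913), 697 of 771 intermediate bins passed, or 90.4%, beside 41% of all bins, 72.3% of the bins of 20 to under 40% and 86.8% of those of over 60 to 80%. The median slope was 2.15 to 2.39 when any embryo was left out.

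Which intermediate bins were replicated differed widely between cells of like Repliscore. Agreement between pairs of cells was measured by the phi coefficient over bins chosen without the embryos of the pair, for pairs within 10 points of Repliscore. Pairs from different embryos had a mean phi of 0.0763 at the 8-cell stage (SD 0.0721, 137 pairs) and 0.064 at the 4-cell stage (SD 0.0726, 71 pairs) over intermediate bins. Over all assessed bins the means were 0.595 in 8-cell and 0.38 in 4-cell pairs. A set of bins of like share leaves little shared order for phi to pick up, and the sets beside it were as low. Bins of 20 to under 40% gave 0.068 in 8-cell and 0.0773 in 4-cell pairs, and bins of over 60 to 80% gave 0.08 in 8-cell and 0.0468 in 4-cell pairs.

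In pairs from different embryos, 36.6% of intermediate bins differed in state between 8-cell cells under 5 points of Repliscore apart (79 pairs) and 43.8% between such 4-cell cells (42 pairs). At 20 points or more it was 66.2% in 8-cell pairs (75 pairs) and 59.5% in 4-cell pairs (27 pairs). The number of bins each cell has replicated sets much of this share and of which cell is ahead at a differing bin, so neither shows an order among the bins.

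Cells of one embryo agreed more than cells of different embryos. Over intermediate bins the mean phi of same-embryo pairs was 0.216 ± 0.0847 at the 8-cell stage (SD, n = 8), against 0.0796 ± 0.0156 for pairs of the same cells with other embryos. At the 4-cell stage it was 0.156 ± 0.12 (SD, n = 6), against 0.0711 ± 0.0433. The excess over both stages was 0.114 ± 0.0971 (SD, n = 14, positive in 11, exact sign-flip p = 0.00122, adjusted p = 0.0148). It was 0.136 at the 8-cell stage (exact sign-flip p = 0.0156, adjusted p = 0.0513) and 0.0845 at the 4-cell stage (exact sign-flip p = 0.125). The stages differed by 0.0516 (exact permutation p = 0.337). At the 4-cell stage pairs from different embryos could also differ in batch, while same-embryo pairs did not. With the later batch alone the 4-cell excess was 0.0869 (exact sign-flip p = 0.25). That over both stages was then 0.132 (exact sign-flip p = 0.000977). The part of the batch in the excess was not tested. Over all assessed bins the excess was 0.0756 (exact sign-flip p = 0.0171), and the excess at intermediate bins was larger by 0.0384 ± 0.0936 (exact sign-flip p = 0.149). The likeness within embryos was therefore not shown to be particular to intermediate bins. Most embryos gave a single pair, and 4-cell embryo 6 had the lowest value at -0.0387.

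Neighbouring intermediate bins switched together, and distant ones hardly did. After stage and Repliscore were removed from the state of each bin over the 46 mid-S cells, the mean correlation between adjacent intermediate bins was 0.83 (296 pairs). It was 0.66 at 0.16 to 0.24 Mb (231 pairs), 0.38 at 0.32 to 0.48 Mb (143 pairs), 0.25 at 0.56 to 0.96 Mb (213 pairs) and 0.16 at 2.08 to 5.04 Mb (895 pairs). Bins over 20 Mb apart on one chromosome still stood at 0.09 (12642 pairs), and bins on different chromosomes at 0.02 (278559 pairs). Without the 6 cells that held a one-state autosome the value beyond 20 Mb was 0.05 and that for different chromosomes 0.02. The comparison bins stood at 0.27 (20 to under 40%) and 0.30 (over 60 to 80%) at 0.56 to 0.96 Mb, and beyond 20 Mb the bins of over 60 to 80% stood at 0.17. All bins share the same cells, and the authors' annotation names a hidden Markov model (HMM) for the states. Such a model favours runs of one state, and its part in the likeness of neighbours was not tested.

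**Figure D3:**
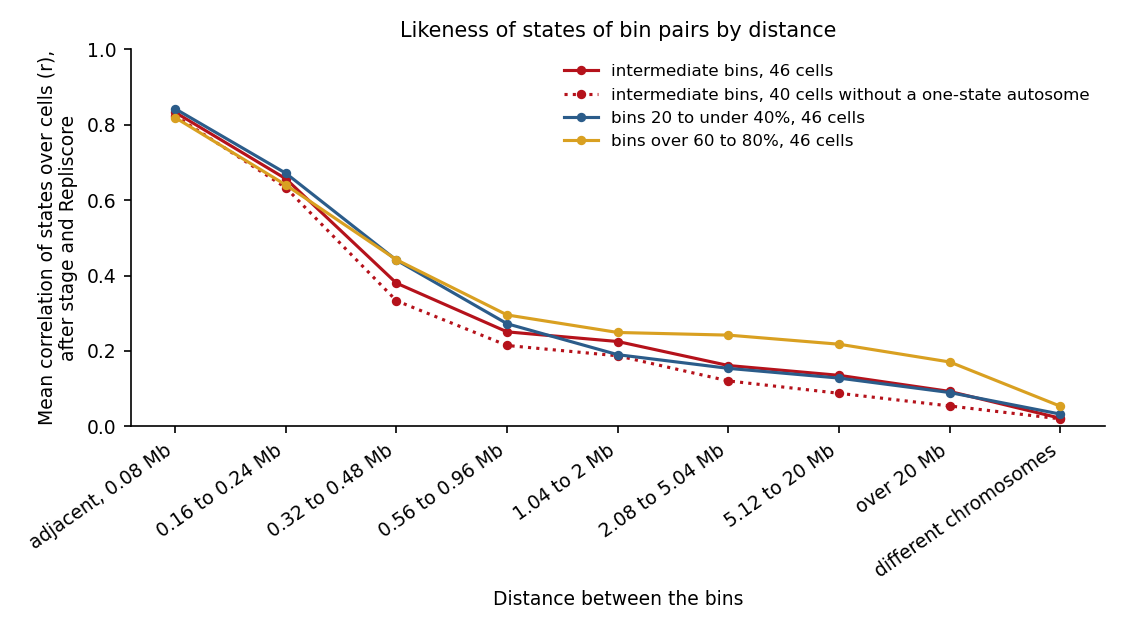
Mean correlation over mid-S cells between the states of 2 bins of one set, after stage and Repliscore were removed, by the distance between the bins. Intermediate bins (red, dotted without cells that held a one-state autosome) start at 0.83 for adjacent bins and end at 0.02 for bins on different chromosomes, near the bins of later (blue) and earlier (yellow) timing.

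The longest runs show the mixture directly. They are the 9 runs of 5 bins or more and the first in genome order of the 22 runs of 4 bins. Read over these 10 runs, 8-cell mid-S cells with a Repliscore under 50 had the whole run unreplicated in 90 of 158 readings (56.96%), wholly replicated in 26 and split in 42. Those at 50 or over had it wholly replicated in 78 of 120 readings (65%), unreplicated in 9 and split in 33. In 4-cell cells under 50 the run was unreplicated in 29 of 40 readings and replicated in 3, and at 50 or over replicated in 72 of 138 (52.2%), unreplicated in 38 and split in 28. The readings share cells and embryos and were not tested.

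**Figure D4:**
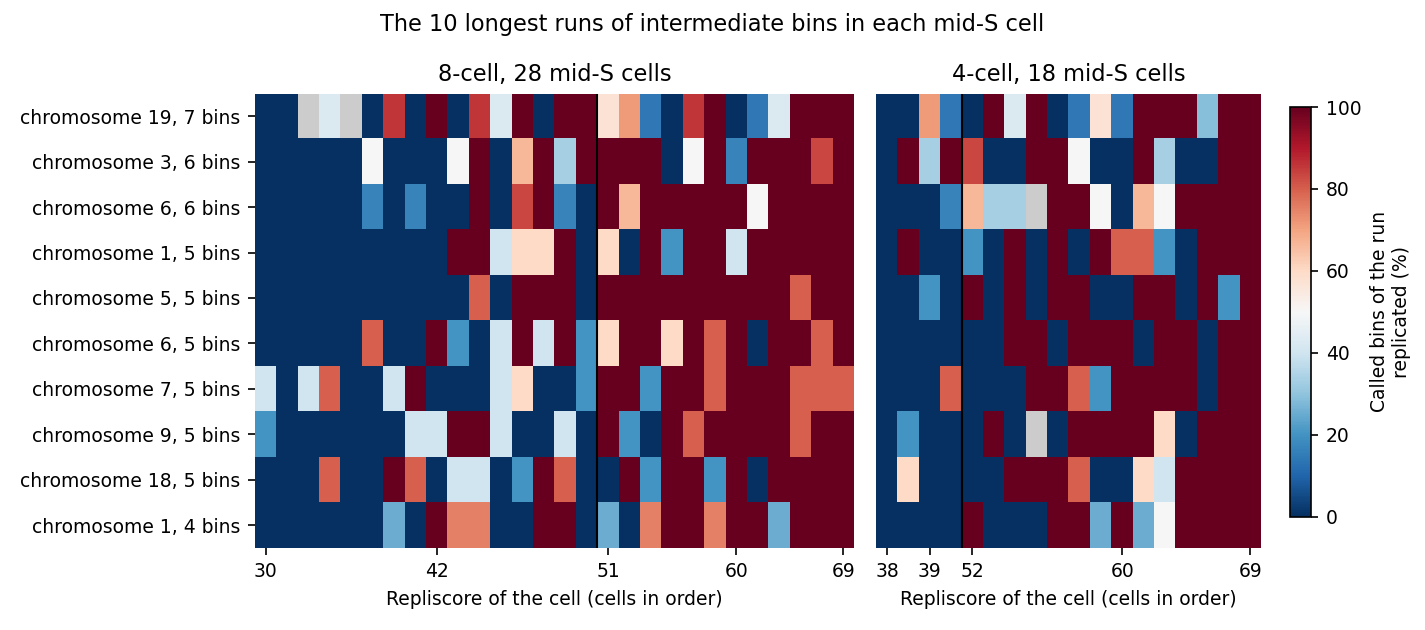
Percentage of the called bins replicated in each of the 10 longest runs (rows, by chromosome and length) in each mid-S cell, with 28 8-cell cells (left) and 18 4-cell cells (right) in order of Repliscore and a black line at a Repliscore of 50. Uncalled runs are grey. Wholly replicated (dark red) runs took 65% of the 8-cell readings right of the line, and wholly unreplicated (dark blue) runs 56.96% of those left of it.

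The longest runs differed in how closely they followed the Repliscore. The run at chr6:33360001-33840000 lay between flanks of 66.0 and 81.5%, both early, and had the highest mean slope of the 9 runs with 5 or more bins, at 3.24. Of 8-cell cells under a Repliscore of 50, it was unreplicated in 10, replicated in 2 and split in 4, and of those at 50 or over it was replicated in 10, unreplicated in 0 and split in 2. Among 4-cell cells 6 had it replicated, 4 unreplicated and 7 split, and all 6 replicated ones had a Repliscore of 50 or over. Its embryo values spanned 5.56 to 100% in 8-cell embryos (median 46.4%) and 0 to 100% in 4-cell embryos (median 50%).

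The runs at chr9:22720001-23120000 and chr5:14400001-14800000 had mean slopes above the median of 2.20 over intermediate bins, as did others of the longest runs. The first is a border, with flanks of 85.5 and 29.5% and a slope of 3.01. It was split in 8 of 28 8-cell and in 2 of 17 4-cell cells. The second lay between flanks of 57.5 and 69.7%, had a slope of 2.47 and acted most like a unit at the 8-cell stage, where 14 cells had it replicated, 12 unreplicated and 2 split. All 12 unreplicated cells were under a Repliscore of 50. At the 4-cell stage 8 had it replicated, 8 unreplicated and 2 split, and 5 of the unreplicated cells had a Repliscore of 50 or over.

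The longest run, at chr19:56320001-56880000, had flanks of 40.1 and 72.5% and a mean slope of 1.29. It was split in 10 of 26 8-cell cells and in 7 of 18 4-cell cells. Among 8-cell cells at a Repliscore of 50 or over, 4 had it replicated, 2 unreplicated and 6 split, so its state was mixed even there. The run at chr3:61360001-61840000 had flanks of 57.5 and 66.8% and a slope of 1.05. At the 4-cell stage 2 of the 4 cells under 50 had replicated it whole, and 6 of the 14 cells at 50 or over had it wholly unreplicated.

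The lowest mean slope, 0.63, belonged to the border run at chr18:55840001-56240000, with flanks of 36.5 and 70.4%. At the 8-cell stage 10 cells had it replicated, 10 unreplicated and 8 split, and at the 4-cell stage 7, 7 and 4 cells did. All 15 late-S cells of the 8-cell stage and all 9 of the 4-cell stage had replicated this run whole. In early-S it was unreplicated in 5 of 6 8-cell cells and split in 1. The run at chr7:89760001-90160000, with late flanks of 31.8 and 13.5% and a slope of 2.37, was split in 12 of 28 8-cell cells, the most of these runs, and in 3 of 18 4-cell cells.

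The run at chr6:99280001-99680000 lay between flanks of 61.8 and 46.1% with a slope of 2.63. It was never split in a 4-cell mid-S cell (9 replicated, 9 unreplicated) and was split in 9 of 28 8-cell cells. The run at chr1:196640001-197040000 reaches nearly to the end of the binned chromosome, with a flank of 28.02% on its only side and a slope of 2.26. It was replicated in 11, unreplicated in 11 and split in 6 8-cell cells, and replicated in 7, unreplicated in 7 and split in 4 4-cell cells. The run of 4 bins at chr1:132400001-132720000 is a border between flanks of 28.02 and 82.3%, with a slope of 3.20. It was unreplicated in all 4 4-cell cells under a Repliscore of 50, and in 10 of 16 such 8-cell cells.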

How the data were processed

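Single-cell Repli-seq profiles of 77 blastomeres were used as deposited. The deposited states are scores of no unit (1, -1 or 0 per 80-kb bin), per the file headers, and were read as replicated, unreplicated and no call, since 1 as a share of a cell's autosomal calls gave the authors' Repliscore, a percent, to within 4.98e-09. Coordinates are in mm9, which the submitters' processing notes name. An HMM mode is named per the file headers, and no source used here gives the aligner. The authors' noise score and read-type columns were not used to select cells. Profile columns that matched no sample numbered 0.

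The bins, comparison sets, tests and the rule for named runs (the 10 longest, and the 5 highest and 5 lowest mean slopes among runs of 5 or more bins, of which 9 exist) were chosen with earlier results of these data known. For tests of embryo means on mid-S cells, except that of the side split border runs faced, bins were chosen again without the embryos measured. Called-cell minima were scaled to the cells left. In the test of split border runs only the flanks, and with them the early side, came from the stage not measured. Embryo means were tested by exact sign-flip or exact permutation tests. They measure the spread between embryos. Slopes, for which the 771 bins were not chosen again, were fitted with limma 3.58.1 in R 4.3.3 on bins with values in at least 8 8-cell and 7 4-cell embryos, with Benjamini-Hochberg adjustment over all bins. In a fit tested on simulated data with 29620 bins it called 129 of 200 bins with a median fitted slope of 3.48, 2 of 200 with 1.6, and 3 of 29220 without a slope. Each simulated state was drawn on its own, without the likeness within embryos or between neighbouring bins found here. These counts therefore give no rate of false calls for the measured data. Alternatives changed the cells, batch, embryos, share limits, flanks, run length, pair limits and unit of the fit. Borders by whole stretches and the stage differences by batch or without one-state cells were chosen after seeing the data. Other steps ran in Python 3.11.15 with scipy 1.17.1, pandas 2.3.3 and numpy 2.4.6, and figures in matplotlib 3.10.9.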

Additional observations from a re-analysis of the deposited data

How the results depend on the processing

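The number of intermediate bins was 373 in the later batch alone, 192 with limits of 45 to 55% and 2110 with 35 to 65%, and 751 to 1010 with any embryo left out. The border share was 27.6% in the later batch, 29.7% and 45.1% with the narrow and wide limits, 14.8% with flank limits of 70 and 30%, 55.6% by whole stretches and 35.1 to 42.4% with an embryo left out. The excess of state changes at the 4-cell stage was 1.26 without cells that held a one-state autosome (exact p = 0.156), 1.13 in the later batch and 0.99 with the narrow limits, all past the threshold no longer. With an embryo left out it was 0.903 to 1.62 (p 0.00781 to 0.18), and 1.55 to 2.11 at the 8-cell stage (p 0.00586 to 0.0625). The stage difference in one-state runs was -10.3 points with the wide limits (p = 0.0296), 1.60 points for runs of 6 or more called bins, the opposite sign, and -12.4 to -5.41 points with an embryo left out. Split runs faced early beyond 50% by 13.5 points at the 8-cell stage in the later batch and 10.0 with the narrow limits, under the threshold, and by 10.8 to 25.96 with an embryo left out. At the 4-cell stage the value was -50.0 with the narrow limits, where a single embryo gave one, 27.8 with the wide limits (p = 0.0156) and 5.99 to 27.1 with an embryo left out. The late-S difference between the stages was 7.55 points with the wide limits (p = 0.0427) and 5.73 to 9.72 with an embryo left out (p 0.0189 to 0.145), and the early-S one -18.7 to -13.5. Against 0, the late-S excess was 8.45 to 11.8 in 8-cell and 1.43 to 3.64 in 4-cell embryos, and the early-S value -16.0 to -13.3 in 8-cell embryos. Same-embryo excess was 0.0951 to 0.14 over both stages, 0.115 to 0.164 at the 8-cell and 0.0465 to 0.138 at the 4-cell stage. Bins passing the slope test numbered 0 in the later batch, 48 and 412 with the narrow and wide limits, 697 with cells as the unit and 0 to 238 with an embryo left out; the median slope stayed at 2.15 to 2.39. Of all 511 values under the alternatives 442 were scored as unchanged. Tested values had to keep their direction and side of the threshold, and counts to lie within 1.5 times. The border share had to lie within its 95% exact binomial interval, which treats bins as independent, and the median slope within 0.247 of the main value. Embryos with no mid-S cell alter no mid-S value when left out, so part of the 442 was fixed in advance. Causes were not tested. No paired analysis was possible because the labels give no replicate that both stages share. The number of embryos, the missing read depth and the binary states limit the precision.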

Other observations

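The intermediate bins were spread unevenly over the autosomes. Chromosome 13 had the highest share, 77 of 1457 assessed bins (5.28%), followed by chromosome 3 with 80 of 1956 (4.09%) and chromosome 6 with 68 of 1827 (3.72%). Chromosome 4 had the lowest, 21 of 1859 (1.13%). Without the cells that held a one-state autosome, 860 bins were intermediate, of which 562 were among the 771. Chromosome 13 was again at the top with 90 bins (6.18%) and chromosome 4 at the bottom with 24 (1.29%), while chromosome 19 had 21 of 726 bins (2.89%), against 26 (3.58%) with all cells. These shares were not tested, since neighbouring bins are not replicates.

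The stretch of intermediate timing with the most such bins lay at chr3:51520001-57200000, 5.68 Mb wide with an early bin on both sides, and held 14 intermediate bins. On the same chromosome a stretch of 2.4 Mb between late bins, at chr3:60160001-62560000, held 9. On chromosome 19 a stretch of 2.88 Mb at chr19:57680001-60560000 lay between early bins and held 9. In each of them the intermediate bins were part of a longer stretch of intermediate timing. Whether timing was graded or even within these stretches was not tested.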
